A study of Arabidopsis thaliana with 6 samples.

Results

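STZ, ZAT5 and GIS are genes of C2H2 zinc finger transcription factors, chosen by name and locus and each measured by 1 probe set of the Affymetrix ATH1 array. They are 3 of 13350 genes that a probe set of a single named gene represented. STZ, also called ZAT10, is locus AT1G27730 (probe set 261648_at), and GIS is AT3G58070 (251586_at). The annotation lists AT2G28200 (265573_at) by locus alone, and ZAT5 is the name in general use for that locus. Transcripts were measured in rosette leaves of Arabidopsis thaliana plants 3 weeks old. The wild type was Landsberg erecta (Ler), and the mutant flu carried the allele flu1-1 in that ecotype. All plants of both genotypes grew on soil in continuous light, spent 8 h in darkness and were harvested 30 min, 60 min or 2 h after the light returned. Each of the 6 combinations of genotype and time gave 1 array, made from RNA of 2 biological experiments that had been pooled. No single value therefore has a replicate, and no array shows either genotype in the dark.

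C2H2 zinc finger proteins bind DNA through short finger domains in which cysteine and histidine residues hold a zinc ion. STZ and ZAT5 belong to the plant-specific branch in which many members carry an EAR motif, a short peptide that recruits co-repressors and turns the factor into a repressor. STZ is known for its induction by salt, cold, drought, wounding and excess light. GIS belongs to a small group of related factors that act in gibberellin signalling upstream of the trichome initiation genes. The flu mutant builds up protochlorophyllide in darkness, which generates singlet oxygen in the plastids once the light returns.

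The arrays had been scaled alike, with a 2% trimmed mean signal of 500 on each. The flu array of 30 min had a lower geometric mean of the hybridisation controls (743) than the other arrays (1077 to 1468). Leaf identity was checked with marker genes, of which 6 of 17 mesophyll markers had a named probe set, and the part of their genotype difference in the results was not tested. Their summed signal lay between 76876 and 86246 in Ler and between 53620 and 61832 in flu. The lone root marker with a probe set, PYK10, a root beta-glucosidase, had signals of 141 to 257 in Ler and 293 to 481 in flu. No floral marker had a named probe set. FLU itself had none either, so the mutated gene was not checked here.

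STZ stood far higher in flu than in Ler at every time of light. Its signals in Ler were 308 at 30 min, 283 at 60 min and 267 at 2 h. In flu they were 6741, 8279 and 6607 in the same order. All 3 flu arrays were thus high and all 3 Ler arrays low, with no overlap and a gap of 4.22 on the log2 scale between the lowest flu and the highest Ler array. Expressed as flu over Ler, the signal ratios were 21.9, 29.3 and 24.8 from the earliest to the latest harvest.

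ZAT5 had lower signals in flu than in Ler at each time, but the ranges of the genotypes overlapped. In Ler the signals were 953, 996 and 529 in order of time. In flu they were 564, 503 and 389. The Ler array of 2 h lay below the flu array of 30 min, and it was the only Ler array within the flu range. As a share of the Ler signal, flu held 59.2% at 30 min, 50.4% at 60 min and 73.4% at 2 h.

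GIS had lower signals in flu as well, and here the genotypes did not overlap. In Ler the signals were 539, 695 and 315 in order of time. In flu they were 266, 234 and 127. The flu array of 2 h was the lowest of the 6 and lay under 185, the median of all signals, where MAS5 values are noisier. In flu the signal was 49.3%, 33.7% and 40.3% of that in Ler.

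**Figure D1:**
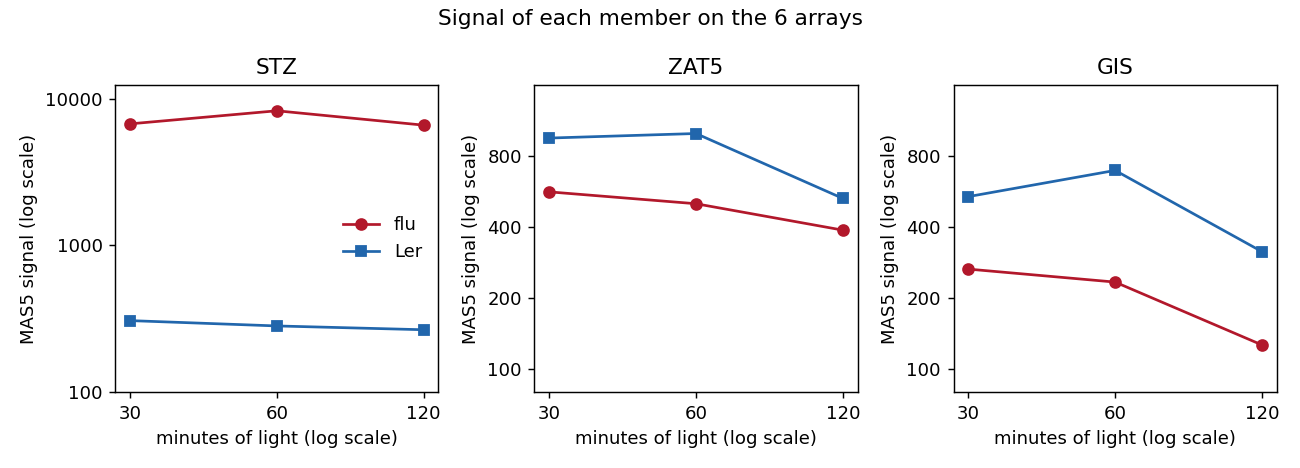
MAS5 signal (log scale) of STZ, ZAT5 and GIS against minutes of light (log scale), with 1 array per point, flu as red circles and Ler as blue squares. The flu points of STZ lie between 6607 and 8279 and its Ler points between 267 and 308. For ZAT5 and GIS the flu point is below the Ler point at each time.

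The genotype difference over the whole 2 h was tested across 13064 probe sets with limma on the scale log2(signal + 50), with time as a factor. The offset of 50 damps differences of dim probe sets. STZ was higher in the mutant, with a log2 difference of 4.43 (SE 0.16, limma, adjusted p = 0.000542, n = 3 arrays per genotype, higher at 3 of 3 times). On this scale that is 21.5-fold, with an unadjusted 95% interval of 16.5 to 28.2. GIS was lower, with a log2 difference of -1.11 (SE 0.17, limma, adjusted p = 0.0278, lower at 3 of 3 times). That is 2.16-fold, with an interval of 1.61 to 2.90. ZAT5 had a log2 difference of -0.68 (SE 0.17, limma, adjusted p = 0.102), negative at 3 of 3 times, and did not pass. Its difference corresponds to 1.60-fold, with an unadjusted interval of 1.20 to 2.13.

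In this fit 2.87% of the probe sets tested were called higher in flu and 0.375% lower. STZ was among the former and GIS among the latter. Of all probe sets STZ had the smallest p, and its mean difference was the 5th from the top. The mean difference of GIS was the 53rd from the bottom and that of ZAT5 the 456th. All 3 members passed the filter on low signals, which asks for 185 on the brightest array, and each would have passed on its Ler arrays alone. The call for GIS was lost without a filter (adjusted p = 0.0733), with a filter at the 75th percentile (adjusted p = 0.107), without the arrays of 60 min (log2 difference -0.97, adjusted p = 0.331) and with no time in the fit (adjusted p = 0.0985). ZAT5 passed without the arrays of 2 h (log2 difference -0.81, adjusted p = 0.0244).

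**Figure D2:**
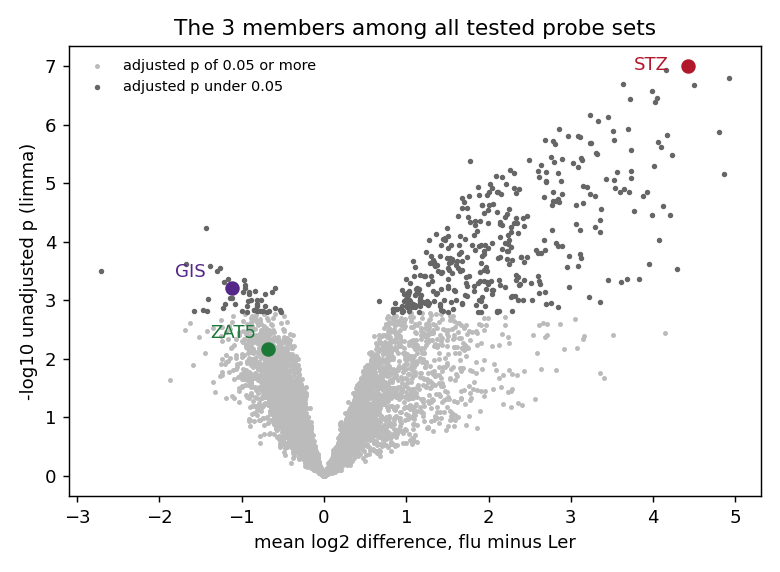
Mean log2 difference, flu minus Ler, of each of 13064 probe sets against the -log10 of its unadjusted p from limma. Dark points have an adjusted p under 0.05, and the members are the coloured points. STZ is at the top of the right arm at 4.43, GIS among the dark points of the left arm at -1.11, and ZAT5 below them at -0.68.

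Groups whose arrays did not overlap were common, so the separation of the arrays is to be read against that background. All 3 flu signals lay above all 3 Ler signals for 9.36% of the probe sets, as for STZ, and below them for 18.1%, as for GIS. An exact permutation test of 3 arrays against 3 cannot give a two-sided p under 0.1. The log2 differences of STZ at the single times varied with an SD of 0.20, those of ZAT5 with 0.26 and those of GIS with 0.25.

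At the single times, differences could be given but not tested. For STZ the log2 differences, flu minus Ler, were 4.25, 4.64 and 4.39 in order of time. Its place among all probe sets nevertheless moved from the 6th highest at 30 min and the 8th at 60 min to the 56th at 2 h. The probe sets at least 2-fold higher in flu, which held STZ each time, were 2.98% of those tested at 30 min, 6.12% at 60 min and 10.1% at 2 h.

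GIS had log2 differences of -0.90, -1.39 and -1.05 at the 3 times. It was the 99th lowest probe set at 30 min, the 47th at 60 min and the 620th at 2 h. It was at least 2-fold lower on this scale at 60 min, together with 1.44% of the probe sets, and at 2 h, together with 5.5%. ZAT5 had -0.71, -0.92 and -0.40, and was the 273rd, 265th and 4312th lowest. At 2 h the median of all probe sets was itself at -0.20, against -0.04 and -0.08 earlier, so ZAT5 lay only slightly below the typical probe set there. Between GIS and ZAT5 the genotype difference was more negative for GIS by -0.19, -0.47 and -0.64 at the 3 times, a contrast that was not tested.

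**Figure D3:**
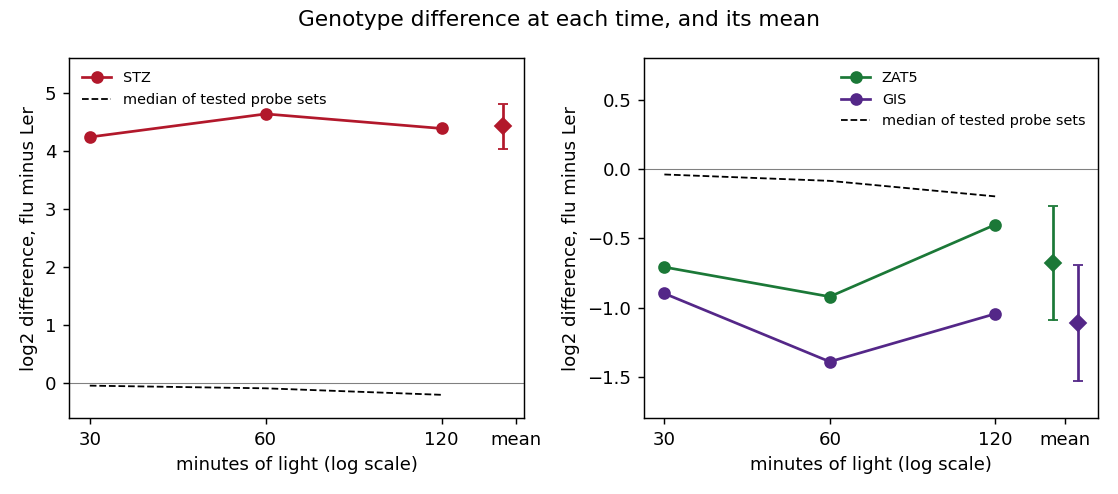
Log2 difference, flu minus Ler, of STZ (left) and of ZAT5 and GIS (right) against minutes of light, 1 array of each genotype per point. Diamonds are the means over the 3 times with unadjusted 95% intervals from limma, and the dashed line is the median of all tested probe sets. STZ stays between 4.25 and 4.64, GIS between -1.39 and -0.90, and ZAT5 between -0.92 and -0.40.

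Whether the genotype difference grew or shrank with time was tested by adding an interaction of genotype and log2 minutes, which called 5.08% of the probe sets. None of the 3 members was among them. The difference of STZ changed by 0.07 per doubling of time (SE 0.17, limma, adjusted p = 0.861), with an interval of -0.29 to 0.44. For ZAT5 the change was 0.15 (SE 0.18, adjusted p = 0.719), within -0.25 to 0.56, and for GIS -0.07 (SE 0.21, adjusted p = 0.898), within -0.54 to 0.40. The term leaves 1 residual degree of freedom, which is the departure from a straight line.

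On the Ler arrays, 1 per time, the steps over time differed in size among the members. Neither these steps nor the differences among members were tested. STZ in Ler had log2 changes of -0.10 from 30 to 60 min and -0.07 from 60 min to 2 h, close to the medians of all probe sets (-0.03 and 0.00). ZAT5 and GIS in Ler had 0.06 and 0.34 in the first step, and -0.85 and -1.03 in the second. In that second step 1.51% of the tested probe sets had a log2 change as low as that of ZAT5, and 0.919% one as low as that of GIS. In flu the second step was -0.33 for ZAT5, -0.68 for GIS and -0.32 for STZ, against a median of -0.11, and 6.30% of the probe sets were as low as GIS.

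Taking both genotypes together, the change from 30 min to 2 h was -0.76 for GIS (SE 0.21, limma, adjusted p = 0.366) and -0.64 for ZAT5 (SE 0.21, adjusted p = 0.390). STZ had -0.10 (SE 0.20, adjusted p = 0.840). No member passed, and limma called 0% of all probe sets for this change, although 569 were higher and 923 lower at an unadjusted p under 0.05. The signals of ZAT5 and GIS were the lowest of their genotype at 2 h in both flu and Ler.

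The 6 levels of each gene were put in order and the steps compared with the SD of a difference of 2 arrays. That SD came from the residual variance of the fit, which limma draws toward a trend over all probe sets. The prior held 4.18 degrees of freedom, against 2 for the residual of the gene. Without replicates, this SD reflects how far the genotypes departed from a common course over time, not the spread of replicate arrays. By weight most of it is the departure of probe sets in general, not of the gene itself. For STZ this SD was 0.28. The flu array of 60 min led by 0.29, those of 30 min and 2 h differed by 0.03, and the Ler arrays followed with steps of 0.10 and 0.07. For ZAT5 the SD was 0.29. The Ler arrays of 60 and 30 min stood 0.06 apart at the top, and 0.71 lower came flu at 30 min, Ler at 2 h and flu at 60 min, with steps of 0.08 and 0.07. Flu at 2 h was last, a further 0.33 down. For GIS the SD was 0.30. Ler at 60 min was first, Ler at 30 min 0.34 lower, and Ler at 2 h, flu at 30 min and flu at 60 min followed after a step of 0.69, with 0.21 and 0.15 between them. Flu at 2 h was last after a step of 0.68.

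The profiles of ZAT5 and GIS over the 6 arrays were alike (Pearson r = 0.97), while STZ ran against both (r = -0.72 with ZAT5 and -0.80 with GIS). These are descriptions over 6 arrays that share their scaling and their 2 genotypes. The genes closest to each member were those with the smallest root mean square distance between profiles of log2(signal + 50), each centred on its own mean, among 6928 tested probe sets of 1 named gene.

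The closest gene to STZ was AT3G04640, at a distance of 0.21 (r = 0.997). Its signals were 190, 258 and 189 in Ler and 3840, 5841 and 4326 in flu, and its mean log2 difference was 4.16. AT3G01830 followed at 0.37, AT4G29780 at 0.39, AT2G22880 at 0.40 and AT3G02840 at 0.41, with r of 0.98 to 0.99. These 4 had Ler signals under 185 on every array and passed the filter on flu arrays alone. The offset of 50 damps differences at such signals, so their distance to STZ depends on it. In all 5 the flu signals differed by a larger factor among the times than in STZ. AT4G29780 had 5832, 8042 and 3462, lowest at 2 h, while AT2G22880 had 887, 1687 and 2098, highest at 2 h. A profile with r above 0.95 to STZ was found for 120 of the 6928 probe sets, for 22 to ZAT5 and for 35 to GIS. Probe sets that passed the filter on flu arrays alone could enter the count of STZ.

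For ZAT5 the closest profile was that of AT3G15310, annotated as a pseudogene, at a distance of 0.09 (r = 0.98). Its signals were 195, 228 and 122 in Ler and 109, 94.5 and 67.2 in flu, most of them under the median of all signals. The next were AT5G06790 at 0.10, AT1G64500 at 0.12, AT4G16447 at 0.13 and AT3G07940 at 0.16. For GIS the closest were AT4G16447 at 0.23 (r = 0.97), AT3G51470 at 0.25, AT1G15260 at 0.26, AT5G47610 at 0.26 and AT3G15310 at 0.26. AT4G16447 and AT3G15310 were thus among the 5 closest genes of both. AT4G16447 had signals of 455, 413 and 262 in Ler and 230, 181 and 138 in flu and a mean log2 difference of -0.86. AT5G47610 had 903, 866 and 757 in Ler and 468, 352 and 248 in flu, with a mean of -1.17. These genes were picked for profiles like those of GIS and ZAT5 on the same arrays, so their genotype differences are a description.

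**Figure D4:**
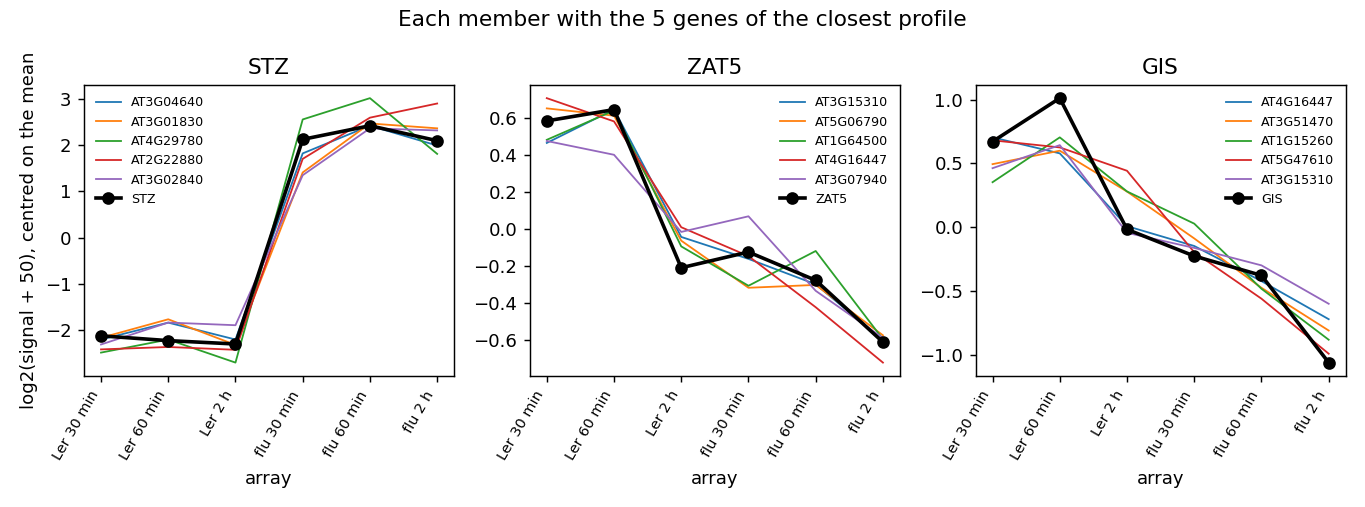
Log2(signal + 50) of each member (black) and of its 5 closest genes (coloured) on the 6 arrays, each profile centred on its own mean. The STZ panel splits by genotype, from about -2 in Ler to about 2 in flu. In the ZAT5 and GIS panels the Ler arrays of 30 and 60 min are highest and the flu array of 2 h is lowest.

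Other C2H2 genes gave few measurements. Of 67 such genes on the lists, which included the ZAT and AZF relatives of STZ, the GIS relatives, the IDD and WIP groups and organ-shape regulators, 15 had a named probe set and 4 were bright enough to be tested. By limma 0 of the 4 were called, where 2.87% of all probe sets were called higher and 0.375% lower. A count over 4 genes therefore says little. Of the 4, 1 had an unadjusted p under 0.05, as did 20.4% of all probe sets. AT3G53600, a locus listed as a relative of STZ, had signals of 17.8, 1.79 and 28.4 in Ler and 3.36, 48.3 and 192 in flu, with differences of -0.34, 0.92 and 1.63 at the 3 times (mean 0.74, SE 0.63, adjusted p = 0.542). It passed the filter through the flu array of 2 h alone. AT1G14580, listed with the IDD group, had a mean difference of -0.64 (SE 0.22, adjusted p = 0.186), and AT3G45260 of the same group -0.30 (SE 0.24, adjusted p = 0.523). SE, a zinc finger protein of microRNA processing, had -0.33 (SE 0.20, adjusted p = 0.398).

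The other 11 had signals under 185 on every array and were not tested. Among them were the petal regulator RBE, the root factor JKD and the locus AT1G68360, listed as a relative of GIS. The signals of AT1G68360 were 104, 125 and 142 in Ler and 82.0, 104 and 110 in flu, lower in flu at each time. JKD had 81.8, 68.4 and 90.5 in Ler and 66.0, 22.9 and 10.1 in flu. Others went the other way. RBE had 15.6, 4.18 and 24.7 in Ler and 34.0, 50.7 and 30.7 in flu. AT2G28710, listed as a relative of STZ, had 12.3, 59.2 and 67.3 in Ler and 87.4, 106 and 70.2 in flu. The remaining loci listed as relatives of STZ were of both signs. The mean log2 difference was -0.39 for AT2G45120, -0.21 for AT3G60580 and 0.19 for AT5G03510. The 11 genes thus had differences of both signs, at signals where MAS5 values are noisier.

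Trichome regulators were measured beside GIS through 2 genes. TRY, an R3-type MYB protein that holds back trichome fate in neighbouring cells, had signals of 212, 390 and 393 in Ler and 170, 200 and 214 in flu. The flu signals were lower at each time, though the flu array of 2 h slightly exceeded the Ler array of 30 min. Its mean log2 difference was -0.60 (SE 0.19, limma, adjusted p = 0.169), which did not pass. SPY, a repressor of gibberellin signalling, had 669, 453 and 505 in Ler and 665, 470 and 439 in flu, a mean difference of -0.05 (SE 0.15, adjusted p = 0.883). By limma neither was called, where 2.87% of all probe sets were called higher and 0.375% lower. Of them 1, TRY, had an unadjusted p under 0.05, against 20.4% of all probe sets. In whole leaves, fewer cells of a type and less RNA per cell cannot be told apart. TRY was also the only one of 6 trichome markers with a named probe set, and the part of trichome number in the GIS values was not tested. Of the guard cell markers FAMA had a mean difference of -0.07 (SE 0.21, adjusted p = 0.873).

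Of 24 genes that earlier work linked to STZ, 2 had a named probe set, both cold-regulated. COR15A had signals of 287, 294 and 284 in Ler and 284, 264 and 491 in flu, a mean difference of 0.19 (SE 0.21, limma, adjusted p = 0.647). COR47 had 3897, 3475 and 2043 in Ler and 3476, 4060 and 3199 in flu, a mean of 0.23 (SE 0.18, adjusted p = 0.509). Neither was called, where 2.87% of all probe sets were called higher and 0.375% lower. Nor had either an unadjusted p under 0.05, against 20.4% of all probe sets. Both were highest relative to Ler at 2 h, with log2 differences of 0.70 and 0.63, against 4.39 for STZ at that time. None of the 9 co-repressors of EAR factors on the list had a named probe set. The median difference of all tested probe sets was -0.11. For comparison, the 6 tested mesophyll markers had negative differences with a median of -0.56. All 6 had an unadjusted p under 0.05, against 20.4% of all probe sets. Of them 1, SBPASE of the Calvin cycle, passed (-0.63, SE 0.10, limma, adjusted p = 0.0305), against 0.375% of all probe sets called lower. Those that did not pass included the antenna genes LHCB4.3 (-1.19), LHCB4.2 (-0.73) and LHCB4.1 (-0.42) and the Calvin cycle gene PRK (-0.49). In the alternative settings 0 were called with quantile normalization, without a filter, without a trend in the variance prior and without the arrays of 60 min, and 3 with the filter at the 75th percentile and with no time in the fit.

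The mean differences of the members kept their signs under all 11 alternative settings. The filter, the prior and the time term cannot alter a mean, so those settings could change only its p. Omitting a time averages differences that already share a sign. Only the offsets and quantile normalization could have changed a sign. The setting with unscaled signals had to repeat the reported fit, because the deposited arrays already had a trimmed mean of 500. It is counted below but is no separate check. For STZ the mean lay between 4.24 and 4.58 and passed in 11 of 11 settings, with the highest adjusted p, 0.0274, without the arrays of 60 min. GIS lay between -1.23 and -0.97 and passed in 7 of 11. ZAT5 lay between -0.81 and -0.55 and passed in 1 of 11.

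**Figure D5:**
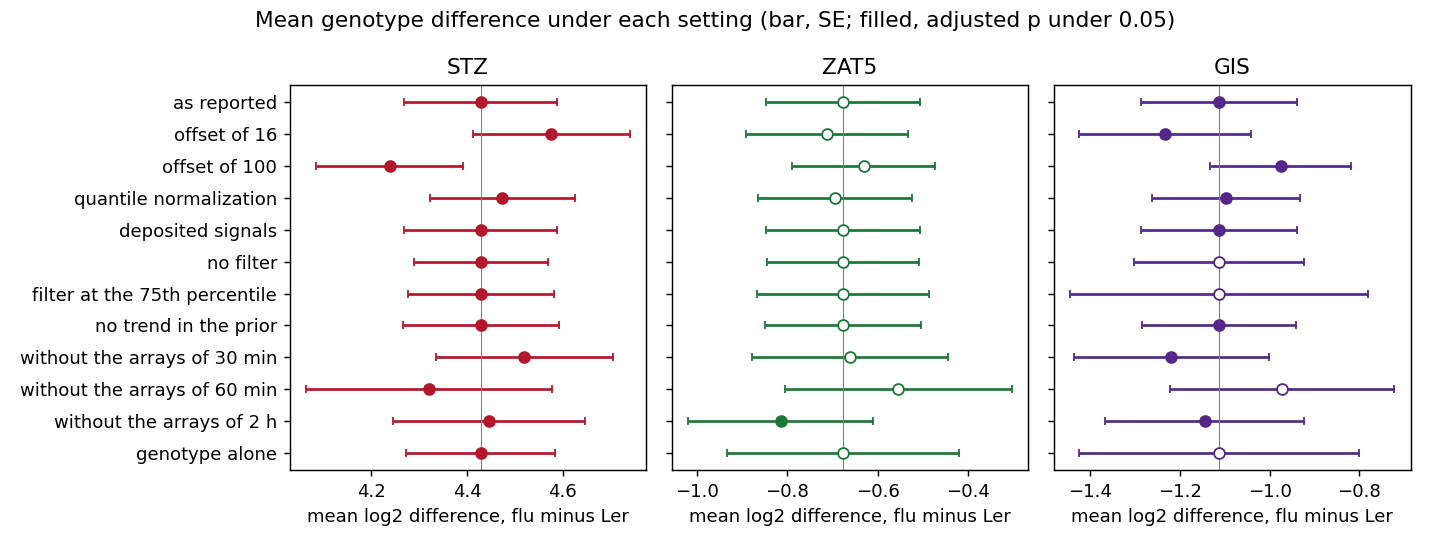
Mean log2 difference, flu minus Ler, of each member with its SE as reported and under 11 alternative settings, where a filled point has an adjusted p under 0.05. The points of STZ are all filled, those of GIS are open in 4 settings, and ZAT5 is filled in 1.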

How the data were processed

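The submitters' processing notes name MAS5, with no version given in the sources used here, and the deposited values are its signals, a linear intensity for each probe set. MAS5 subtracts mismatch signal, which adds noise to dim values. No detection calls were used, and with only 6 arrays the precision is limited. Each array was brought to a 2% trimmed mean of 500 and transformed as log2(signal + 50). Of 22810 probe sets, 64 controls were left out, and 13064 whose brightest array reached the overall median (185) were tested. Names came from the platform annotation (13513 probe sets with 1 gene, 503 with several, 8794 without), and 13436 matched RefSeq (TAIR10.1), used for names and gene order. Coordinates and sequences were not used here.

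The test was limma 3.58.1 (R 4.3.3) with genotype plus time as a factor, a mean-variance trend and Benjamini-Hochberg adjustment over all tested probe sets (threshold 0.05). Its 2 residual degrees of freedom hold the spread of the genotype difference over the 3 times, not that of replicates. The fits were tested on simulated data. Members, gene lists and tests were chosen with earlier results of these data known. Named were the 3 members, the 5 genes closest to each, and of each list the genes that passed and up to 4 with the largest differences. AT3G45260 was named outside this rule, after its values were seen. Alternatives were offsets of 16 and 100, quantile-normalized or unscaled signals, dropping the filter or raising it to the 75th percentile (591), a prior without trend, omission of each time or of the time term and, for the closest genes, Pearson correlation.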

Additional observations from a re-analysis of the deposited data

Results flagged for a closer look

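From 30 to 60 min of light each member moved in opposite directions in the genotypes, on 1 array per point, so this difference between flu and Ler was not tested at that step. On the log2 scale STZ had a change of -0.10 in Ler and 0.29 in flu. ZAT5 had 0.061 in Ler and -0.15 in flu, and GIS had 0.34 in Ler and -0.15 in flu. Of these steps only that of STZ in flu and that of GIS in Ler exceeded the SD of a difference of 2 arrays (0.28 for STZ, 0.29 for ZAT5, 0.30 for GIS). Opposite steps enter that SD themselves, so the comparison is a description and no test. Steps of opposite sign in the genotypes were found for 49% of the 13064 probe sets tested.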

How the results depend on the processing

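The time term pairs the flu and Ler arrays of each time, and the fit with no time is its unpaired form. GIS lost its call without a filter, with a filter at the 75th percentile and with no time in the fit. These settings cannot alter its mean log2 difference of -1.11. Without the arrays of 60 min GIS had -0.97 and was not called. ZAT5 passed at -0.81 without the arrays of 2 h. STZ passed in every setting run. The number of probe sets lower in flu, 49 as reported, was 14 without a filter, 77 with the stricter one, 15 without a trend in the prior and 131 with no time in the fit. Without the arrays of 30 min 567 were higher and 134 lower, without those of 60 min 75 and 0, and without those of 2 h 595 and 122. The cause of these shifts was not tested, and the settings that omit a time also have fewer arrays. Of the genes closest to a member, fewer were shared when the measure was Pearson correlation, with 1 of 5 for STZ, 2 for ZAT5 and 1 for GIS. With other offsets, scalings or filters 3 to 5 were shared, except with the stricter filter, with 1 for ZAT5 and 2 for GIS.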

Other observations

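Genes that lie next to the members in the RefSeq gene order, a comparison chosen after the values were seen, were looked at up to the third gene on either side, 18 in all. A named probe set represented 4 of them and 2 were tested, of which 0 were called by limma. Among all probe sets 2.87% were called higher and 0.375% lower, so a count over 2 genes says little about the neighbours. AT1G27700, near STZ, had signals of 576, 530 and 487 in Ler and 426, 539 and 482 in flu, with a mean log2 difference of -0.13 (SE 0.16, adjusted p = 0.682). AT3G58050, near GIS, had 418, 444 and 463 in Ler and 612, 407 and 576 in flu, with a mean difference of 0.23 (SE 0.18, adjusted p = 0.506). The other two, AT3G58060 and AT3G58090, were under the median of all signals on each array. None of the neighbours of ZAT5 had a named probe set.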
